A study of Mus musculus with 6 samples.

Results

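Positions of RNA cleavage that lie unusually close to, or unusually far from, the poly(A) signal hexamer listed for them were described here in mouse embryonic stem cells. The deposited tables give each position with its reads, a hexamer and a distance in nucleotides (nt). Positions with a distance of 10 nt or less made up the near class, and those with 31 nt or more the far class. With mitochondrial positions left out, the 6 libraries together listed 2333467 positions, of which 213686 were near and 388185 were far, 601871 in all. The 1205801 positions at 15 to 25 nt served as the reference class, and the remaining 525795 positions fell between the classes. The rule used the distance alone, so reads and treatment groups were free to differ between the classes. Hexamer and distance were listed together, so hexamers were not wholly free to differ.

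The cells were of the V6.5 line, embryonic stem cells of C57BL/6-129 background, and the poly(A)-selected RNA was sequenced at its 3′ ends. There were 2 libraries from untreated cells, 2 from cells that received an antisense morpholino oligonucleotide (AMO) of scrambled sequence, and 2 from cells that received an AMO against the U1 small nuclear ribonucleoprotein. The series describes the 2 libraries of each group as biological replicates. By the read names, replicate 1 of both AMO groups was sequenced in 1 run and lane, replicate 2 of both in another run, and each untreated library in a run of its own. All 6 came from 1 cell line in standard culture, and both AMO groups differ from the untreated one in having received an oligonucleotide at all.

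In the making of an mRNA 3′ end, the cleavage and polyadenylation specificity factor binds a hexamer, most often AATAAA in DNA letters, and the RNA is cut a short way downstream before adenosines are added. Single-base variants of the hexamer, ATTAAA above all, serve at many sites, and other elements around the cut add to the choice of site. U1, best known for recognising 5′ splice sites, also holds back cleavage at signals inside transcription units, so that its inhibition is known to expose premature 3′ ends.

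The commonest hexamers, on which the description of the near and far classes turns, are given here. Capitals mark the bases that differ from AATAAA.
Canonical signal: aataaa
Second commonest signal: aTtaaa
All-adenine hexamer: aaAaaa
Variant changed at base 1: Tataaa
Variant changed at base 3: aaGaaa
Variant changed at bases 1 and 3: TaAaaa
Variant changed at base 2: aGtaaa
These are among the 36 kinds listed, and the last 4 were the kinds with most listed positions after the first 3.

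How the distance was counted was read from the values, since the sources used here do not define it. When each hexamer was placed by its distance, 27396 of 27396 pairs of overlapping copies carried the same letters over the whole overlap. That agreement would hold under any constant shift of the distance, so it does not place the listed base. The distance was taken as the number of bases from the first base of the hexamer through the listed position. This counting was chosen because listed positions then fell less often on hexamer adenines than on other hexamer letters. Values under a shifted counting are not given here, so the counting remains an assumption. A distance of 6 nt, the shortest in the tables, then puts the listed position on the last base of the hexamer itself. The longest distance was 40 nt. The choice of hexamer followed a fixed order: in 273825 encounters of 2 different kinds within 1 window of 40 nt the same kind of each pair was always listed, over 610 pairs of kinds, with AATAAA first and ATTAAA second. In 59509 of 59509 encounters of 2 copies of 1 kind, the copy nearer to the listed position was given. A near position therefore carries the copy of its kind closest to it, and a second copy further upstream goes unlisted in its row.

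Under this counting, listed positions fell less often on hexamer adenines than on other hexamer letters. Since the counting was chosen for that pattern, the values describe it and are no separate test of it. At the last base of the hexamer a position was listed for 16.2% of copies that end in another base and for 2.42% of copies that end in A. Over the 6 bases together, 1.45% of hexamer adenines and 3.58% of the other hexamer letters held a listed position. Base 7, the first after the hexamer, held one in 7.08% of copies, and bases 8 to 12 in 4.61% to 5.62%. The pooled value for A includes 308468 copies of AATAAA, of which 0.542% had a position at the last base, so it also reflects which kinds end in A. Kinds that differ in the last letter alone are given here, with that letter in capitals to show the base a position at 6 nt would occupy.
Ending in A: aaaaaA
Ending in C: aaaaaC
Ending in G: aaaaaG
Ending in T: aaaaaT
A position was listed at the last base for 13.8% of the copies ending in A, 15.9% of those ending in C, 30.1% of those ending in G and 27.5% of those ending in T. A was the lowest of the 4 but close to C. These kinds were picked after their values were seen.

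**Figure D1:**
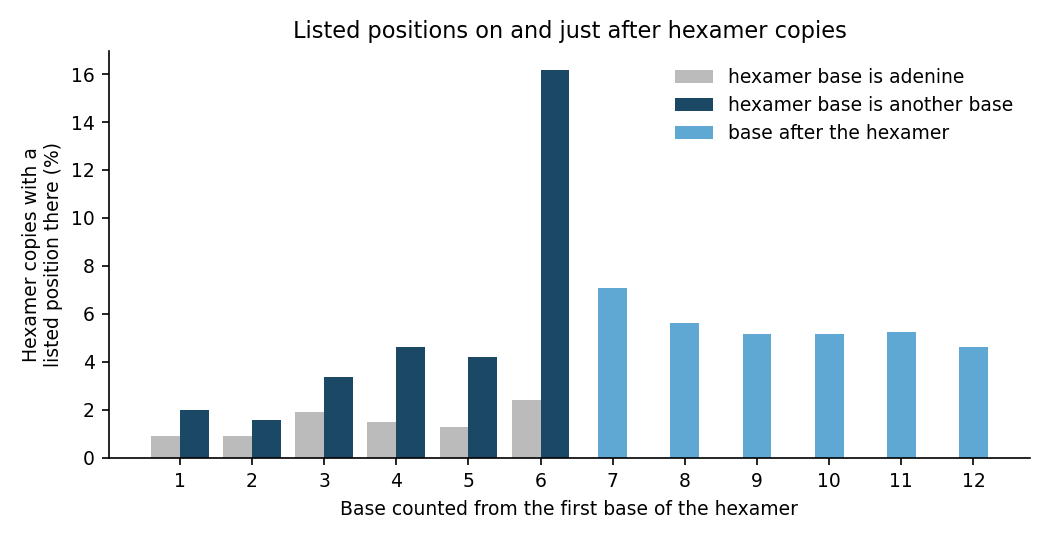
Share of hexamer copies (y axis, percent of copies) with a listed position at each base, counted from the first base of the hexamer (x axis). Bars over bases 1 to 6 are split by whether that hexamer base is adenine. The counting of bases was chosen because positions then fell less often on adenines. At base 6 the bar for other bases reaches 16.2% against 2.42% for adenine, and base 7 stands at 7.08%.

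Near positions were many but thinly read. They were 9.16% of all positions and held 1.16% of the pooled reads, whereas far positions were 16.6% of positions with 5.43% of reads, and the reference class was 51.7% with 78.9%. Positions were most frequent at 20 nt, with 141303, and at 21 nt, with 140330. A lesser peak lay inside the near class, at 7 nt, where 60463 positions were listed against 25850 at 6 nt and 45093 at 8 nt. That peak was absent from AATAAA, which rose from 1672 positions at 6 nt and 7769 at 7 nt to 12814 at 10 nt.

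**Figure D2:**
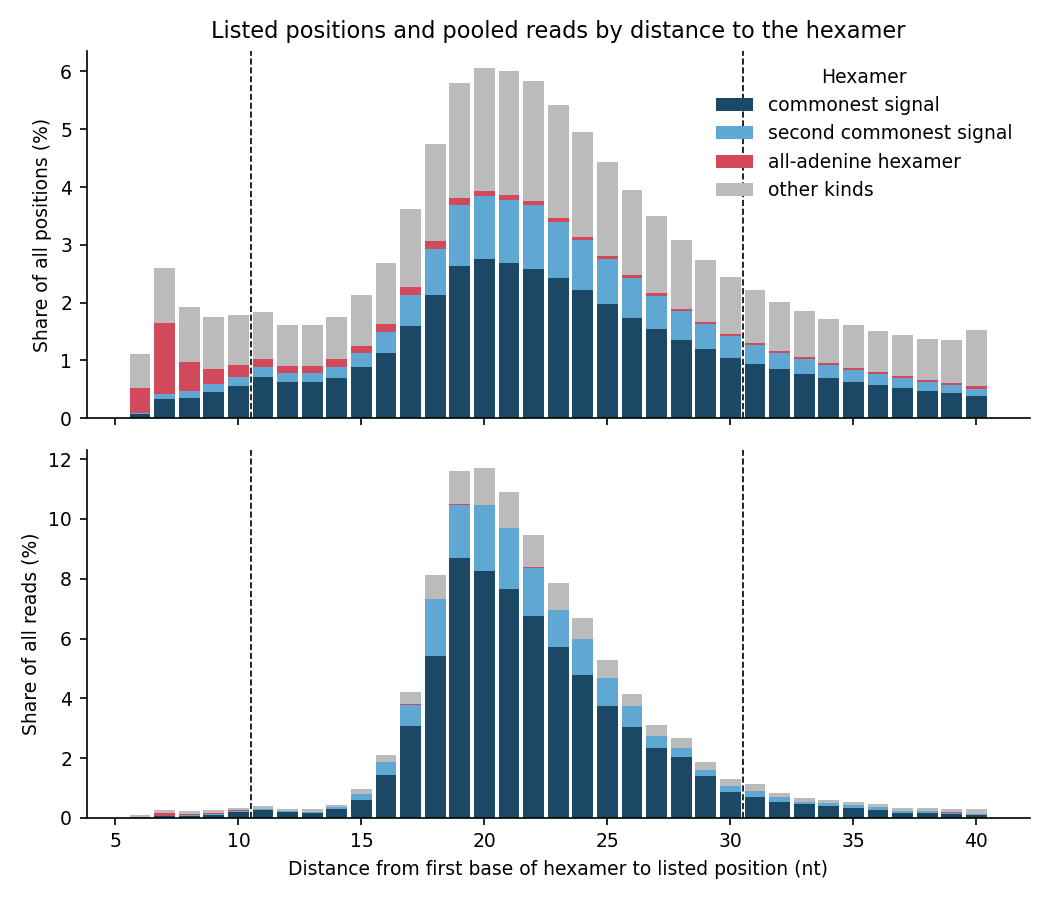
Share of all listed positions (upper panel) and of all pooled reads (lower panel), in percent, at each distance from 6 to 40 nt, stacked by hexamer. Dashed lines mark the limits of the near and far classes. The all-adenine hexamer is the commonest kind in the peak of positions at 7 nt, with 47.5% of positions there, and the peak carries 0.266% of all reads.

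Within each library the mean number of reads per near position was below that of the reference class. The near means were 8.62 and 16.6 reads untreated, 6.60 and 7.53 under scrambled AMO and 5.62 and 7.24 under U1 AMO. The reference means were 72.9, 179, 47.6, 87.1, 31.2 and 69.3 reads in the same order. The reference class was higher in 6 of 6 libraries, by 5.55-fold to 11.6-fold. On the log2 scale the near mean was lower by an average that equals a difference of -3.10 ± 0.395 (SD, n = 6 libraries), with p = 0.03125 in an exact sign-flip permutation test, two-sided, the smallest p that 6 libraries can give, and p = 0.0357 after Benjamini-Hochberg adjustment over 8 comparisons of classes.

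Far positions stood between the other classes. Their means were 18.1 and 39.7 reads untreated, 11.9 and 21.0 under scrambled AMO and 8.85 and 17.4 under U1 AMO. The reference class was higher by 3.52-fold to 4.52-fold, a log2 difference of -2.01 ± 0.116 (SD, n = 6, the same exact sign-flip permutation test, adjusted p = 0.0357). Means follow a few strong positions in every class: the median position had 1 pooled read in the near class and 2 in the far and reference classes. The 100 positions with most reads held 34.6% of near reads, 23.1% of far reads and 14.5% of reference reads.

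Most atypically spaced positions were seen in 1 library alone. That was the case for 70.0% of near, 61.3% of far and 55.0% of reference positions, and 6012 near, 25424 far and 132138 reference positions were found in all 6. Detection moves with depth, since the shallowest library held 15413148 reads and the deepest 61726804. For a position with few reads, absence from a library could not be told apart from too little depth.

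The near class held another mix of hexamers than the reference class. AATAAA or ATTAAA accounted for 52.1% and 51.9% of near reads in the untreated libraries, 42.2% and 44.0% under scrambled AMO, and 42.7% and 44.2% under U1 AMO. In the reference class the same share ran from 88.7% to 90.1%. Every near value lay below every reference value, and the 4 AMO libraries lay below both untreated ones, a split between libraries that was not tested. The near mean was 46.2% ± 4.57 against 89.3% ± 0.529 (SD, n = 6), a difference of -43.2 percentage points (exact sign-flip permutation test, adjusted p = 0.0357). With the near limit at 12 nt the difference was -31.6 points, and with the limit at 8 nt it was -61.7 points. In the far class the 2 signals made up 75.5% to 78.7% of reads, with a mean of 76.5% ± 1.19 and a difference of -12.9 points from the reference (adjusted p = 0.0357 in the same permutation test). The fixed order of kinds sets hexamer and distance together. How much of these 2 differences in hexamers follows from the listing was not tested.

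Pooled over the libraries, the all-adenine hexamer was the leading kind among near positions. It was listed for 61440 of them, 28.8%, against 2.03% of reference and 2.41% of far positions. By library it was listed for 17.7% and 47.7% of near positions untreated, 30.7% and 29.1% under scrambled AMO and 29.6% and 25.5% under U1 AMO. In untreated replicate 1 AATAAA stood above it, with 24.5%. Its share of near reads was smaller, 15.0% of the pooled reads, and 0.109% of reference reads. By library it took 4.79% and 15.2% of near reads in untreated cells, 25.8% and 11.6% under scrambled AMO, and 27.8% and 12.4% under U1 AMO. The 2 libraries that share sequencing run and lane, replicate 1 of each AMO group, were the highest pair.

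Position by position, the all-adenine share fell with distance. It was 38.4% of positions at 6 nt, 47.5% at 7 nt, 26.6% at 8 nt, 14.8% at 9 nt and 11.5% at 10 nt, while AATAAA rose from 6.47% to 12.8%, 18.0%, 26.1% and 30.9%. At 11 nt, just outside the class, AATAAA had 39.3% and AAAAAA 7.36%. The class limit thus cut through a gradual change. The 28705 all-adenine positions at 7 nt alone were 13.4% of the near class. Under the counting of distance used here, the listed base of these rows cannot be adenine. Were it adenine, a copy ending on it would have been given at 6 nt, since the nearest copy of a kind is listed.

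Other kinds were unevenly spread too. TAAAAA took 6.38% of near positions against 2.77% of reference ones, AAGAAA 5.79% against 2.81%, and TATAAA 3.62% against 4.87%. AGTAAA, with a single change at the second base, was rarer near than in the reference class, with 1.82% against 4.17%. Of the reads listed with each kind, 0.575% lay in the near class for AATAAA, 0.795% for ATTAAA, 0.481% for AGTAAA, 1.75% for CATAAA and 1.77% for AATACA. The share was 3.93% for TATAAA, 6.24% for AAGAAA, 9.94% for TAAAAA and 51.0% for AAAAAA. In all, 24 of the 36 kinds had a larger share of near than of reference positions.

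In the far class the change was broader and flatter. AATAAA was listed for 37.6% of far positions and ATTAAA for 12.4%, against 44.5% and 17.3% in the reference class. AATAAA fell from 42.7% of positions at 31 nt to 25.2% at 40 nt, and 28 of 36 kinds had a larger share of far than of reference positions. Reads listed with TAAAAA lay far in 32.9% of cases and those with AAGAAA in 24.3%, compared with 4.62% for AATAAA and 5.27% for ATTAAA. At the edge of the window, ATAAAA was listed for 2736 positions and ATTAAT for 270, and none of these lay at a distance other than 40 nt. Read 1 base upstream, ATAAAA always spells a kind of higher rank (such as TATAAA), as does ATTAAT (such as TATTAA). These kinds can therefore be listed only where the window ends.

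**Figure D3:**
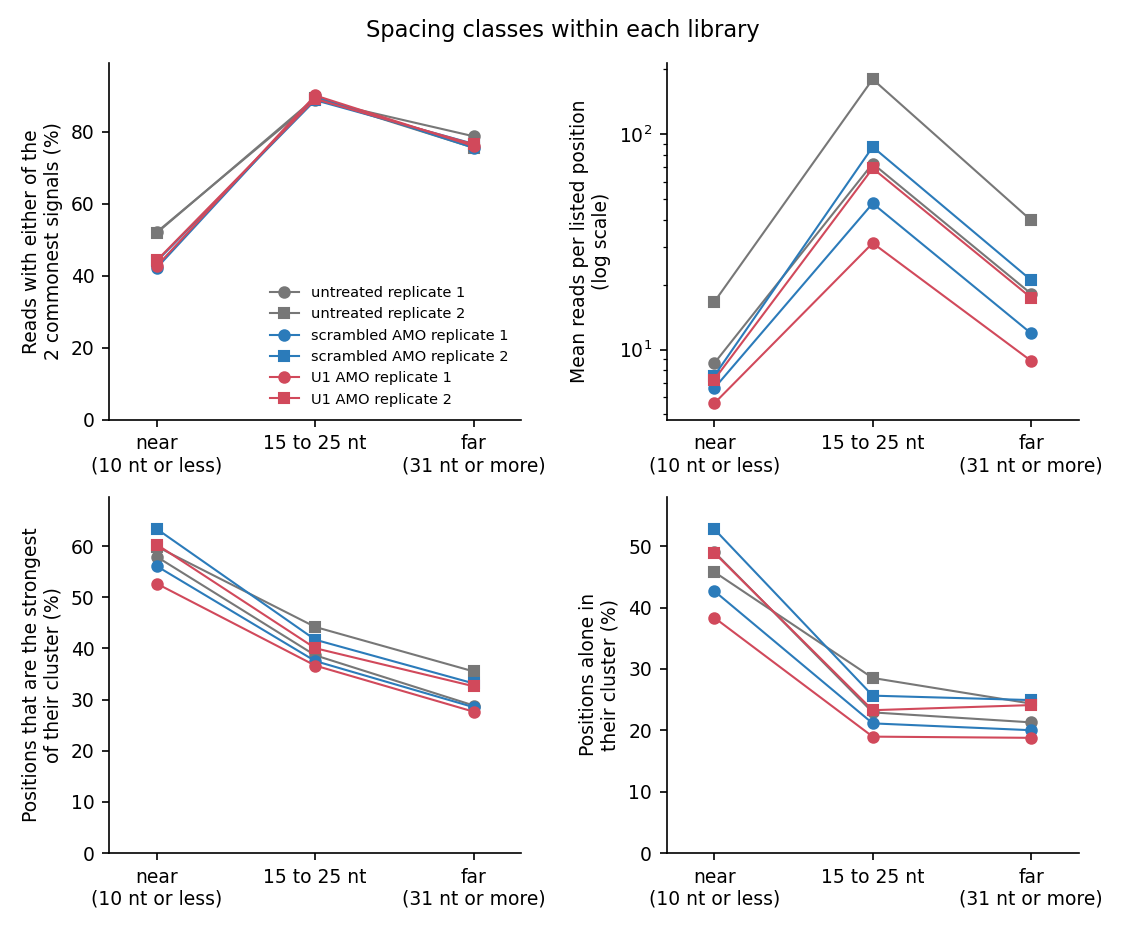
Near, reference and far positions within each of the 6 libraries, joined by lines, for the share of reads with either of the 2 commonest signals, the mean reads per listed position (log axis), the share of positions that are the strongest of their cluster, and the share alone in their cluster. Circles are replicate 1 and squares replicate 2. The near class was lowest in the first 2 measures and highest in the other 2 in each library. Lone positions count as the strongest of their cluster, so the last 2 measures are not separate.

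Many atypically spaced positions shared their hexamer copy with a typical one. For 49.98% of far positions the same copy also served a position at 15 to 25 nt, and for 39.1% it served one with more reads. For near positions the shares were 24.5% and 16.5%. Among near positions with AATAAA 47.4% shared their copy with a position at 15 to 25 nt, and among those with AAAAAA 8.01% did. Seen from the signal, 14403 AATAAA copies had at least 20 reads in each of the 6 libraries. On average 1.41% to 1.51% of a copy's reads fell near and 7.22% to 7.71% fell far, over the 6 libraries. Copies with most of their reads near were 1.03% to 1.12% of these, and copies with most of their reads far were 4.87% to 5.25%. The mean near share was 1.48% and 1.42% untreated, 1.49% and 1.41% under scrambled AMO and 1.50% and 1.51% under U1 AMO. Both U1 AMO values lay above the other 4 by less than the spread within the other groups, a difference that was not tested. It did not recur over 4258 ATTAAA copies, where untreated replicate 2 stood above both U1 AMO values. Their near shares were 1.35% and 1.47% untreated, 1.42% and 1.38% under scrambled AMO and 1.43% and 1.43% under U1 AMO.

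A second hexamer copy lay at the usual spacing upstream of some near positions, strongly read ones among them. A copy listed for some other position was found at 15 to 25 nt from 6.19% of near positions, and these held 40.1% of near reads. The second copy was of the same kind for 21.2% of near reads and of a lower-ranked kind alone for 18.8%. The share of reads was 54.4% for near AATAAA positions, 59.7% for ATTAAA, 1.90% for AAAAAA and 35.8% for all other kinds. By library it was 45.9% and 47.1% untreated, 31.5% and 39.4% under scrambled AMO and 30.6% and 37.0% under U1 AMO. For far positions 8.75% to 13.7% of reads had such a copy, always of a lower-ranked kind, since a nearer copy of the same kind would have been listed. Copies that no position in the tables lists could not be counted, so these shares are minimum values. The same shares were not taken for the reference class, so they are not shown to be particular to near positions.

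Within clusters, defined by joining positions of 1 strand at most 24 nt apart, near positions were more often on their own. They were alone in their cluster in 49.1% and 45.8% of cases in untreated cells, 42.7% and 52.8% under scrambled AMO, and 38.4% and 48.9% under U1 AMO, where the reference class had 19.0% to 28.5%. The difference averaged 22.9 points ± 4.05 (SD, n = 6, exact sign-flip permutation test, adjusted p = 0.0357). Near positions were also the strongest of their cluster in 58.4% ± 3.71 of cases against 39.8% ± 2.81, a difference of 18.6 points (adjusted p = 0.0357 in the same permutation test). A lone position counts as the strongest of its cluster, so this difference includes the one in being alone and is not separate from it. Where reads tied, the position furthest upstream counted as the strongest. On average 58.0% of near, 44.5% of far and 37.2% of reference positions in a library had 1 read, so ties can arise. How much of the differences in being strongest came from ties was not tested. Whether near positions that share a cluster were more often its strongest was not tested. With AATAAA positions only, the differences were 8.59 points for being alone and 3.93 points for being strongest. With AAAAAA left out, the second of these was 12.1 points.

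Far positions were less often the strongest of their cluster, in 31.1% ± 3.15 of cases, a difference of -8.76 points from the reference class (adjusted p = 0.0357, exact sign-flip permutation test, n = 6). Of weaker far positions that shared the strongest position's hexamer copy, 89.1% lay downstream of it. A tie in reads goes to the upstream position, and its part in this difference was not tested. Far positions were alone in 22.3% ± 2.57 of cases, and the difference of -1.17 points, negative in 5 of 6 libraries, did not pass the test (exact sign-flip permutation p = 0.125, adjusted p = 0.125). That difference turned to 0.761 points with the far limit at 34 nt, and with the limit at 29 nt it was -2.33 points and passed.

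Weaker members of a cluster were placed relative to its strongest position. Of the 89118 near positions that were not the strongest, 65.5% were upstream of it, and of 260265 such far positions 83.6% were downstream. Positions that share a hexamer copy are ordered by their distance to it, so the rule itself sets their side. Among positions whose hexamer copy was not that of the strongest position, 45.9% of near, 42.7% of far and 43.6% of reference ones were upstream, and the classes lay close together. The strongest position was itself at 15 to 25 nt in 39.95% of the near cases and 48.7% of the far cases.

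**Figure D4:**
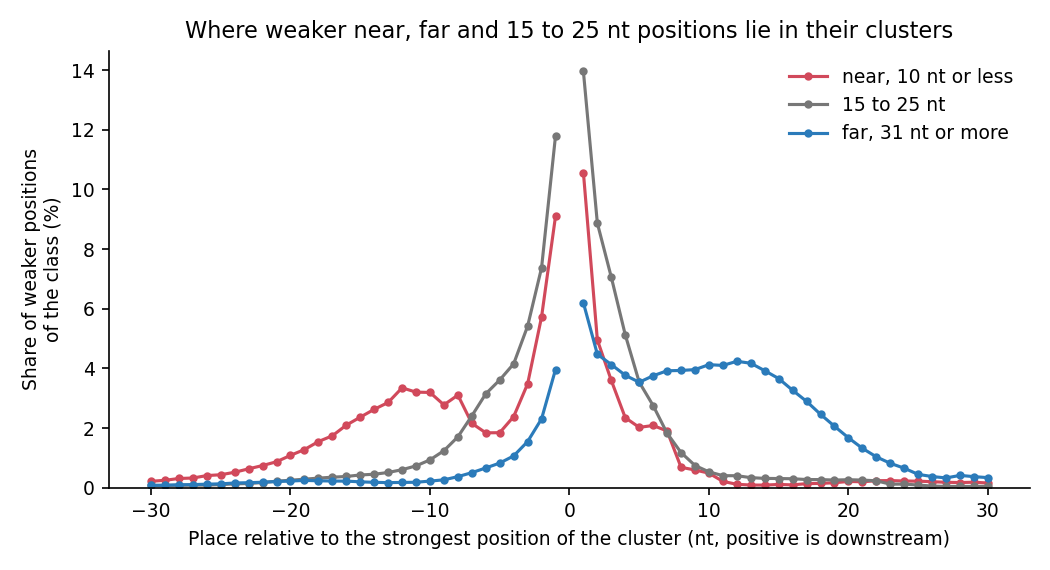
Place of weaker positions relative to the strongest position of their cluster (x axis, nt, positive is downstream) as a share of the weaker positions of each class (y axis, percent). Near positions form a broad shoulder upstream and far positions one downstream, with 65.5% of near positions upstream and 83.6% of far positions downstream. Positions that share the strongest position's hexamer copy, whose order the distance fixes, are included.

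Named positions show what these classes look like on the chromosome, in mm9 coordinates. Hexamers that overlap or adjoin in the tables spell short stretches of sequence, printed here for 3 strongly read or strongly raised near positions with the listed base in capitals.
chr17:35390619-35390631, plus strand: aagaatGaaacaa
chr2:69709558-69709567, plus strand: tataaaaaTa
chr4:153353344-153353355, plus strand: attaaaatTaaa
In each of these the base in capitals was not adenine, under the counting used here. Weaker listed positions in the same stretches did fall on adenines, such as chr17:35390626 with 14648 pooled reads and chr2:69709567 with 3923.

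The near position with most reads, chr17:35390625, lay 7 nt into the first stretch, 1 base after an AAGAAT. It had 356 and 512 CPM (reads scaled to equal library totals) untreated, 287 and 353 under scrambled AMO and 287 and 366 under U1 AMO. The position before it, at 6 nt and on the last base of the hexamer, held 42213 pooled reads beside its 99243, and the one after it 14648. An AACAAA copy, which ranks below AAGAAT, lay 16 nt from it. AAGAAT, a kind named after its values were seen, made up 6.34% of near reads while it was listed for 0.710% of near positions. The positions at chr17:35390624, 35390625 and 35390626 held most of these AAGAAT reads, and chr2:76889900 held another 16107. The whole cluster, chr17:35390622-35390662, was the most abundant one led by a near position, with 711 ± 92.7 CPM in untreated cells, 600 ± 52.4 under scrambled AMO and 626 ± 66.2 under U1 AMO (SD, n = 2 each). The ranges of the 2 AMO groups overlapped, and the log2 change of U1 against scrambled AMO was 0.04 ± 0.32 (SE, edgeR adjusted p = 1).

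At chr2:69709566, 9 nt into a TATAAA, 41178 pooled reads were listed. It had 126 and 333 CPM untreated, 126 and 97.7 under scrambled AMO and 100.3 and 94.3 under U1 AMO, so that untreated replicate 2 was high and the other 5 libraries were close together. An AATATA copy, which ranks below TATAAA, lay 20 nt from the same position. At chr19:44624742 on the minus strand, the near position with most reads at exactly 10 nt, an AATAAA copy lay at 10 nt and a second AATAAA copy at 22 nt. It had 111 and 176 CPM untreated, 131 and 174 under scrambled AMO and 149.9 and 158 under U1 AMO, and the 3 groups overlapped. The position with most reads at 11 nt, just outside the near class, was chr11:70791349 with 36673 reads, against 40473 for chr19:44624742. There, too, a second AATAAA copy lay 26 nt away and served a stronger position, with 271853 reads at 18 nt.

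Far positions with most reads differed in whether a peak of the same copy at the usual spacing lay beside them, and in its strength. At chr1:88247060 on the minus strand, 31 nt into an AGTAAA and the most read far position, 217719 pooled reads lay downstream of a stronger peak of the same copy, with 410828 reads at 20 nt and 317933 at 19 nt. It had 603 and 622 CPM untreated, 538 and 1198 under scrambled AMO and 521 and 1064 under U1 AMO, high in both libraries of the run that held replicate 2 of the AMO groups. The cluster chr11:116711211-116711244, the most abundant one led by a far position, held 68485 reads at 32 nt and slightly fewer, 66361, at 21 nt from 1 ATTAAA. Elsewhere the peak at the usual spacing was the weaker one. At chr9:120040690, 104227 reads at 33 nt stood above 43034 at 21 nt from 1 AATAAA. At chr11:69730216, 91789 at 31 nt stood above 21827 at 23 nt from 1 AATAAA.

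At chr11:95934303 on the minus strand, by contrast, 162078 reads lay at 36 nt from an ATTAAA, with 23971 at 37 nt and 15721 at 35 nt and no position at 15 to 25 nt holding as much as 1 percent of the strongest. It had 584 and 434 CPM untreated, 401 and 820 under scrambled AMO and 703 and 725 under U1 AMO, and the scrambled AMO libraries enclosed all the others. Just outside the far class, the most read position at 30 nt was chr4:150271243, with 88818 reads from an AATAAA.

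The near share of reads did not separate the treatment groups. Near positions held 0.960% and 1.33% of reads in untreated cells, 1.44% and 0.965% under scrambled AMO, and 1.50% and 1.09% under U1 AMO, with 95% Wilson intervals of at most ± 0.00607 points, which cover counting error only. The groups overlapped, and replicate 1 was above replicate 2 in both AMO groups. The U1 AMO mean was 1.30% ± 0.291 against 1.20% ± 0.339 under scrambled AMO (SD, n = 2 each), a difference of 0.0918 points (exact permutation p = 0.67, two-sided; adjusted p = 0.76 over 8 comparisons). Within the run of replicate 1 it was 0.0578 points and within that of replicate 2 it was 0.126 points, both higher with U1 AMO. With 2 libraries against 2 the smallest possible p is 0.33. Against untreated cells the differences were 0.0599 points for the scrambled AMO and 0.152 points for the U1 AMO, with opposite signs for the replicate numbers. They turned to -0.0589 and -0.0100 points with AATAAA positions only.

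**Figure D5:**
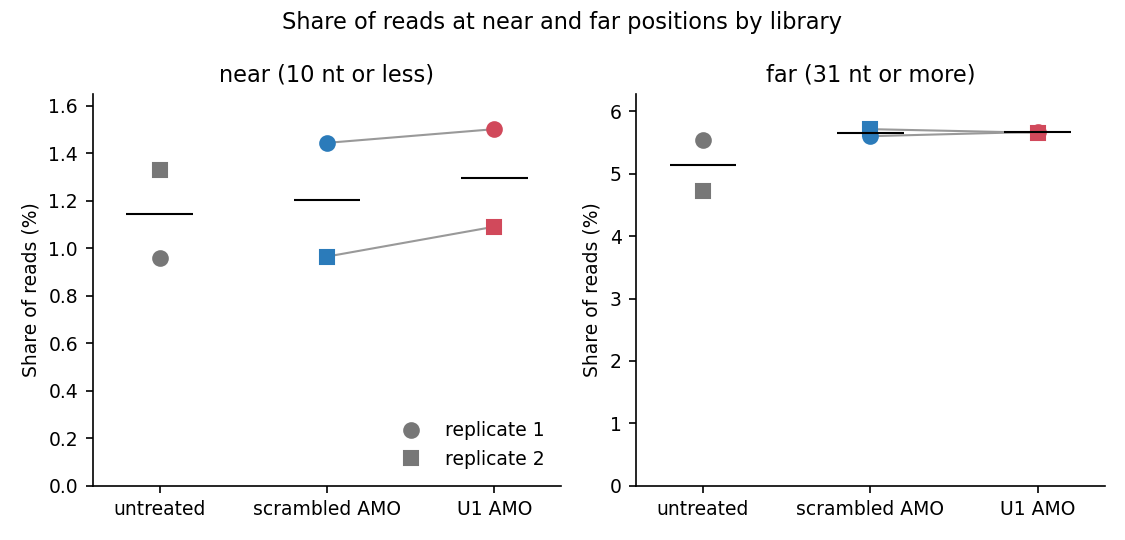
Share of each library's reads (y axis, percent) at near positions (left) and far positions (right) by group, with circles for replicate 1, squares for replicate 2 and horizontal bars for the mean of 2 libraries. Grey lines join AMO libraries of the same sequencing run. Near shares split by run more than by AMO, from 0.965% to 1.50%, and far shares of the 4 AMO libraries lie between 5.60% and 5.72%.

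Far positions held 5.55% and 4.72% of reads in untreated cells, 5.60% and 5.72% under scrambled AMO, and 5.67% and 5.66% under U1 AMO. Here the 4 AMO libraries lay close together and above both untreated ones. The U1 AMO mean differed from the scrambled AMO mean by 0.00579 points (exact permutation p = 1), with 0.0691 points in the run of replicate 1 and -0.0575 points in that of replicate 2. The scrambled AMO mean was 0.523 points and the U1 AMO mean 0.529 points above untreated cells (exact permutation p = 0.33 for each, the smallest possible; adjusted p = 0.76). These comparisons share the untreated libraries. Untreated libraries were sequenced in runs of their own, so that run and treatment cannot be told apart there.

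By number of positions, near ones were 7.24% and 7.65% of those listed under scrambled AMO and 6.07% and 7.26% under U1 AMO, and far ones were 15.6% and 16.3% against 14.6% and 15.7%. The differences of -0.775 and -0.811 points did not pass the test (exact permutation p = 0.67 each). Both were negative within each run, at -1.16 and -0.386 points for near and -1.05 and -0.573 points for far positions in replicates 1 and 2. With every library thinned to the same depth the near shares became 6.68% and 5.80% against 6.07% and 5.81%, and the groups overlapped. The thinned far shares were 15.1% and 15.4% under scrambled AMO against 14.6% and 14.7% under U1 AMO, where the groups did not overlap, a difference of -0.605 points (exact permutation p = 0.33, the smallest possible).

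Clusters led by a near or far position were then compared between groups in counts. Near positions led 124568 of 931675 clusters and far positions 127920, and 4310 and 7783 of these had enough reads to be tested among 80049 clusters in all. Clusters that pass such a filter through 1 group alone are bound to differ, so the counts are read only beside the share of all clusters. Among those tested, AAAAAA was the hexamer of 47.6% of near-led and 2.97% of far-led clusters.

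Against the scrambled AMO, the U1 AMO raised 7 near-led clusters (0.162% of those tested) and 29 far-led clusters (0.373%), where 0.666% of all clusters tested were raised (edgeR quasi-likelihood test, Benjamini-Hochberg adjusted p under 0.05). Both shares were below that of all clusters, a difference that was not tested, and tested near-led and far-led clusters had fewer reads than reference-led ones, with median CPM of 0.330, 0.410 and 0.620. No cluster of any class was lowered in this fit, where 0.0% of all clusters were called lowered. Unadjusted edgeR p under 0.05 was reached downward by 1 of 4310 near-led, 5 of 7783 far-led and 75 of all 80049 clusters. DESeq2 raised 42 near-led (0.974%) and 183 far-led clusters (2.35%), where 3.86% of all clusters tested were raised, and lowered 0 of each. The counts rested on single libraries: without scrambled AMO replicate 2 edgeR raised 0 near-led and 0 far-led clusters, without scrambled AMO replicate 1 it raised 3 and 4, without U1 AMO replicate 2 also 3 and 4, and without U1 AMO replicate 1 it raised 15 and 65. Blocking all 6 libraries by replicate number, it raised 0 and 0. Counts under this block and with a library left out have no share of all clusters beside them. They are not read as a trait of either class. The median log2 change was 0.11 over near-led, -0.02 over far-led and -0.02 over all tested clusters.

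The near-led cluster with the largest rise lay at chr4:153353347-153353374. Its strongest position was 9 nt into an ATTAAA that is followed at once by another, as the stretch printed for it shows. A further ATTAAA copy lay 17 nt from that position. The cluster had 0 and 0 reads untreated, 5 and 5 under scrambled AMO and 942 and 3228 under U1 AMO. The U1 AMO libraries stood far above all others, at 61.1 and 56.4 CPM. Of its positions, the one on the second ATTAAA held 1631 pooled reads, and the next strongest, 5 nt downstream and 8 nt into that second copy, held 1333.

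The next 4 near-led clusters in order of change had 1 read in scrambled AMO replicate 1 and 2 or 3 in replicate 2. At chr11:58792528-58792554, led by TATAAA at 10 nt, 356 and 539 reads were found under U1 AMO beside 1 and 2, a depth-scaled ratio of 362 with a counting interval of 123 to 1759. At chr4:83064756-83064785, led by ACTAAA at 8 nt, there were 232 and 581 reads against 1 and 2, a ratio of 329 (112 to 1598). At chr1:33777470-33777489, led by AAAGAA at 7 nt, 93 and 246 reads stood against 1 and 3. At chr8:13160448-13160468, led by AATAAA at 8 nt, 105 and 168 reads stood against 1 and 3, and a second AATAAA copy began 23 nt before its strongest position. None of these 4 had a read in untreated cells. Of the 7 near-led clusters raised, none was led by AAAAAA.

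The 5 far-led clusters with the largest rises had 0 reads in all untreated and scrambled AMO libraries. At chr1:88252329-88252366 on the minus strand, led by AATAAA at 35 nt, 167 and 325 reads were found under U1 AMO, at least 199-fold higher than the floor of 3 counts over the scrambled AMO group. At chr12:101350880-101350901, with AATAAA at 33 nt, 150 and 331 reads gave at least 195-fold. At chr3:16083957-16083977 with AATAAA at 34 nt the reads were 68 and 179, at least 99.9-fold. At chr11:106857368-106857376 with AATACA at 36 nt they were 74 and 157, at least 93.4-fold, and at chr7:73833313-73833329 with ATTAAA at 31 nt they were 49 and 171, at least 89.0-fold. The near-led and far-led clusters named here for their rise passed the filter on low counts through the U1 AMO group alone, so their values are a description. AATAAA led 51.7% of the 29 far-led clusters raised and 39.1% of those tested.

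When the 4 AMO libraries were fitted alone with the sequencing run as a block, which the replicate number encodes, calls became far more numerous. The U1 AMO then raised 200 of 3513 near-led clusters (5.69%) and 559 of 6476 far-led clusters (8.63%), where 13.4% of all 68821 clusters were raised. It lowered 25 near-led (0.712%) and 103 far-led clusters (1.59%), where 2.28% of all were lowered. Of the 200 near-led clusters raised in that fit, 39 were led by AAAAAA.

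The lowered clusters named by the rule were called in this fit alone. At chr15:48681565-48681568, led by AAAAAA at 7 nt, CPM values were 10.3 and 8.59 under scrambled AMO and 0.519 and 4.81 under U1 AMO, where the groups did not overlap, with a log2 change of -1.90 ± 0.35 (SE, edgeR adjusted p = 8.4e-05). Untreated cells had 0.574 and 3.32 CPM there, below the scrambled AMO. At chr2:76889896-76889902, led by AAGAAT at 8 nt, the values were 12.8 and 90.3 under scrambled AMO and 0.26 and 87.4 under U1 AMO, so that replicate 2 hardly differed. The other 3 near-led clusters, at chr12:80122912-80122918, chr1:48168564-48168568 and chr11:119204936-119204963, changed by -1.87, -1.59 and -1.29 on the log2 scale. Among far-led clusters, chr2:138414619-138414620 with CATAAT at 36 nt had 0.909 and 46.7 CPM under scrambled AMO and 0.26 and 12.04 under U1 AMO, a log2 change of -1.95 ± 0.23 (SE, edgeR adjusted p = 2.2e-08), and untreated cells had 44.6 and 3.40. Its 2 scrambled AMO libraries thus differed by more than the groups did. The others, at chr4:68759744-68759745, chr13:75784165-75784165, chr1:88150755-88150759 and chr16:17365419-17365419, changed by -1.73, -1.66, -1.49 and -1.48. At chr16:17365419 replicate 1 of both AMO groups had 0 reads, and the change was from 235 to 78 reads in replicate 2.

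The most abundant clusters of both classes gave small differences between the AMOs. Of the 5 most abundant near-led clusters, those at chrX:50374747-50374867, chr4:107559941-107560029, chr19:44624714-44624761 and chrX:34423232-34423274 had log2 changes of -0.08, -0.29, 0.04 and 0.31, each with edgeR adjusted p = 1. The far-led clusters at chr11:116711211-116711244, chr9:120040678-120040697, chr11:95934296-95934313, chr1:36750207-36750238 and chr15:85293619-85293644 had 0.14, -0.43, 0.27, 0.04 and 0.07, again with adjusted p = 1. With the run as a block, chr9:120040678-120040697, led by AATAAA at 33 nt, was lowered by a log2 change of -0.52 ± 0.16 (SE, edgeR adjusted p = 0.0183). It had 854 and 813 CPM untreated, 1365 and 1419 under scrambled AMO and 733 and 1332 under U1 AMO, so that the fall was mainly in replicate 1.

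Against untreated cells, the scrambled AMO changed 0 near-led and 0 far-led clusters by edgeR, where 0.0% of all clusters were called. Unadjusted edgeR p under 0.05 was reached upward by 401 of 4310 near-led and 710 of 7783 far-led clusters and downward by 71 and 151. Over all 80049 clusters it was reached upward by 6818 and downward by 3672. DESeq2 called 102 and 183 (2.37% and 2.35% of those tested), where 2.72% of all clusters were called. The median log2 change was 0.61 over near-led and 0.30 over far-led clusters, beside 0.15 over all. The U1 AMO changed 77 near-led clusters, 74 of them raised, and 281 far-led clusters, 268 of them raised, which is 1.79% and 3.61% of those tested where 4.39% of all clusters were raised, 0.505% lowered and 4.89% called in all. Blocking all 6 libraries by replicate number left both counts at 0, although the untreated libraries share no run with the others. Without U1 AMO replicate 2 they were 18 and 58, without untreated replicate 2 they were 46 and 120, and without untreated replicate 1 they were 232 and 711. Neither these counts nor those under the block have a share of all clusters beside them, so they are not read as a trait of either class. The median log2 changes of U1 AMO against untreated were 0.75 over near-led and 0.35 over far-led clusters, beside 0.23 over all. Both comparisons use the same untreated libraries.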

How the data were processed

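RNA 3′ ends were sequenced in 6 libraries, 2 per group. The submitters' processing notes name cutadapt, Bowtie and the mouse build mm9, with versions not given in the sources used here. The tables the authors deposited list stranded positions with a raw read count, a hexamer, a distance to it, and a score, a whole number per position whose meaning none of the sources states. The score served only in an alternative that kept values of 5 or less. How the authors filtered positions is not given either. Nothing in the sources names reads per molecule, so intervals cover counting error only.

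Positions were pooled over the libraries, with chromosome M left out, and distance, hexamer and score were the same wherever a position recurred. Library totals outside chromosome M ran from 15413148 to 61726804 reads. Same-strand positions with gaps of at most 24 nt formed a cluster, which took the class of their strongest position. Where reads tied, the position furthest upstream was taken. Cluster counts were tested with edgeR 4.0.16 (filterByExpr, TMM, quasi-likelihood test, 1 fit of all 6 libraries and 3 groups). Reported log2 changes with adjusted p are from edgeR with Benjamini-Hochberg adjustment over all clusters tested. DESeq2 1.42.0 was an alternative. Shares were compared over libraries with exact permutation tests. The edgeR step was tested on simulated data.

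Named by rule were, for each class, the 5 most abundant clusters, the 5 largest rises and falls among clusters called with a mean of at least 1 CPM (falls from the fit of the 4 AMO libraries with run as a block, since the first fit called none), the 3 leading hexamers and the 6 next commonest kinds, and the most read position at 10, 11, 30 and 31 nt. Members and lists were chosen with earlier results of these data known. Replicate numbers are not said to pair libraries, but in both AMO groups they match the sequencing run. Deviations from the group mean of same-numbered libraries correlated with r = 0.75 between the AMO groups, -0.41 between scrambled AMO and untreated and -0.36 between U1 AMO and untreated, over 29563 clusters as a description. No mm9 genome or annotation was used, so clusters carry coordinates and no gene names.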

Additional observations from a re-analysis of the deposited data

How the results depend on the processing

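The comparisons of classes kept their direction under the alternatives tried, other than the share of far positions alone in their cluster: its difference from the reference class was 0.761 points with limits of 8 and 34 nt and, past the threshold, -2.33 with 12 and 29 nt, -1.79 with at least 2 pooled reads, -4.73 with AATAAA only and -2.52 against 18 to 22 nt. Small differences in shares changed sign. The far share of reads, U1 minus scrambled AMO, was -0.00399 with limits of 8 and 34 nt, -0.00999 with at least 2 reads and -0.0270 with AATAAA only. The near share, scrambled AMO minus untreated, was -0.0571 without AAAAAA, -0.0589 with AATAAA only and -0.0683 with a score of 5 or less, and U1 AMO minus untreated -0.0100 and -0.0283 in the last 2 settings. The causes were not tested.

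Counts of called clusters depended on the fit. U1 against scrambled AMO raised 42 near-led and 183 far-led clusters by DESeq2, where 3.86% of all clusters were raised. With no low-count filter it raised 39 and 182, and 2 far-led ones were lowered. With the replicate block, counts raised were 0 and 0 in all 6 libraries and 200 and 559 in the 4 AMO libraries, with 25 and 103 lowered. It left the share differences as they were, since both are means of the same 2 pairs (0.0918 for near reads). Scrambled AMO against untreated changed 102 and 183 by DESeq2, where 2.72% of all clusters were called, and 124 and 160 with no filter. U1 AMO against untreated changed 319 and 700 by DESeq2 (7.40% and 8.99% of those tested), where 12.6% of all clusters were called. It changed 296 and 557 with no filter, and 0 and 0 with the block in all 6 libraries. The counts with no filter and with the block in all 6 libraries have no share of all clusters beside them. They are not read as a trait of either class.

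Leaving out each library in turn, with a lone library assumed to vary like the others in edgeR, gave 0 to 15 near-led and 0 to 65 far-led clusters raised by U1 against scrambled AMO, and 18 to 232 and 58 to 711 changed against untreated. The near share of reads differed by -0.148 to 0.331 (U1 minus scrambled AMO), -0.0538 to 0.357 (U1 AMO minus untreated) and -0.180 to 0.299 (scrambled AMO minus untreated), and the far share by -0.0505 to 0.0621 (U1 minus scrambled AMO). Class differences could not pass the exact test with 5 libraries but kept their values: for AATAAA or ATTAAA, -44.4 to -42.3 near and -13.4 to -12.6 far; for log2 mean reads, -3.23 to -3.02 and -2.05 to -1.98; for strongest of cluster, 17.96 to 19.1 and -9.02 to -8.54; for near positions alone, 22.01 to 23.98. Depth limits detection of weak positions, most of which had 1 or 2 pooled reads. The cluster counts with a library left out have no share of all clusters beside them. They, too, are not read as a trait of either class.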

Other observations

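The all-adenine hexamer varied between libraries more than any other hexamer group in how its reads were spaced. Of reads listed with AAAAAA, the near class held 25.8% and 55.5% untreated, 64.5% and 40.8% under scrambled AMO and 66.5% and 44.9% under U1 AMO. The same share for AATAAA ran from 0.454% to 0.71%. By number of positions, AAAAAA was near in 70.9% of cases in untreated replicate 2 and in 45.3% to 56.6% in the other 5 libraries. That library also had the largest share of near positions, 9.71%, which was 5.44% with AAAAAA left out, inside the 4.42% to 5.65% of the other 5.

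Near reads split differently by whether another listed hexamer copy lay at 15 to 25 nt. Near reads with such a copy were 0.44% and 0.626% of all reads in untreated cells, 0.455% and 0.38% under scrambled AMO, and 0.46% and 0.404% under U1 AMO. Near reads without one were 0.519% and 0.704%, 0.99% and 0.585%, and 1.04% and 0.687% in the same order. Replicate 1 of both AMO groups, from 1 run and lane, was highest in the second quantity.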
